A study of Mus musculus with 8 samples.

Results

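Nicotinic acetylcholine receptors are channels of 5 subunits that open when acetylcholine binds. In hair cells (HCs) the alpha9 and alpha10 subunits, encoded by Chrna9 and Chrna10, form the receptor of the efferent synapse, through which olivocochlear neurons of the brainstem reach the outer HCs of the adult cochlea and, before hearing begins, the inner HCs. Calcium that enters through this receptor opens the small-conductance potassium channel encoded by Kcnn2 and so inhibits the cell. Chrna1 encodes the alpha subunit of the muscle receptor, whose fetal form also holds the products of Chrnb1, Chrnd and Chrng. Chrnb2 encodes a beta subunit known mainly from neurons, and Rapsn encodes rapsyn, the scaffold that clusters receptors at the nerve-muscle synapse.

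The levels of Chrna9, Chrna10, Chrna1, Chrnb2 and Rapsn were examined, 5 of 27998 genes, each found by its symbol as 1 row of the gene list in all 8 libraries. The libraries were made from single cells of dissociated mouse organ of Corti, with unique molecular identifiers (UMIs) that count transcripts at their 3′ ends. Levels are given as CPM, the gene's UMIs scaled to a common library or class total, and CPM values of different genes are not compared because no length scale applies to 3′ counts. All animals carried Fgfr3iCre+, a Cre that tamoxifen activates and that the Fgfr3 promoter limits, among supporting cells (SCs), mainly to Deiters' and pillar cells, together with the inducible transgene Atoh1-HA+, the reporter Chrna9-GFP+ and, as a lineage mark, Rosa26-CAG-loxP-stop-loxP-tdTomato+. Tamoxifen was given at postnatal day 12 to 13 to switch on Atoh1 in the groups Coch + Tmx P26 (3 libraries, age 26 days) and Coch + Tmx P33 (2 libraries, 33 days). The uninduced groups were Coch P12 (2 libraries, 12 days) and Coch P33 (1 library, 33 days). Because the controls carried the Chrna9 reporter too, and whether its transcript shares sequence with Chrna9 is not given in the sources used here, Chrna9 UMIs may include reporter RNA in every group. The study calls its replicates biological and gives 2 for each group, whereas the labels give 3 libraries for Coch + Tmx P26 and 1 for Coch P33. The labels name no animal for any library, so the p-values below measure the spread between these libraries.

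The libraries held 3972800 to 13423524 UMIs each, and 5970 of 8061 barcodes passed the filters (499 to 1365 per library). At most 3 barcodes were shared by any pair of libraries. Clusters were built and named without the 5 genes or any of the lists described below. The class called cHC-like (converted hair cell-like, 116 cells) carried all 9 of its markers, among them Atoh1 and Pou4f3. The HC-like class (64 cells) carried 11 of 11 markers and the SC-like class (129 cells) 10 of 12, lacking Gjb2 and Ednrb by the rule used. The cHC-like cells came from 4 of the 5 induced libraries, with 30 and 6 cells in Coch + Tmx P26 rep 1 and rep 2 and 42 and 38 cells in Coch + Tmx P33 rep 1 and rep 2. The induced library without any, labelled Coch + Tmx P26 rep 3, stood apart: it held no cHC-like cell and an Atoh1 level of 12.4 CPM, against 90.9 to 527 CPM in the other induced libraries and 17.4 to 23.9 CPM in the uninduced ones.

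To show what the gene starts hold, RefSeq promoter windows (GRCm38.p6, 250 bases before to 50 after a start) are given for the members that rose in both HC classes and for Chrng, the gamma subunit of the fetal muscle receptor, which rose with them in cHC-like cells. Each is written 5′ to 3′ on the gene's strand. Capitals mark the E-box letters CANNTG, the site class that basic helix-loop-helix factors such as Atoh1 bind. The motif reads the same on both strands, and CAGCTG is 1 of its forms.
Chrna9, chr5:65966874-65967173, + strand: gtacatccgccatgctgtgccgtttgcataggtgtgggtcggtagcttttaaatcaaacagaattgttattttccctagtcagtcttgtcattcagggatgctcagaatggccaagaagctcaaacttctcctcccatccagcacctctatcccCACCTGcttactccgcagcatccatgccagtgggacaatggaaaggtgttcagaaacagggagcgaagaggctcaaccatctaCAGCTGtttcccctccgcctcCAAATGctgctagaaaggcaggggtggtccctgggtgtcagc
Chrna10, chr7:102116664-102116963, − strand: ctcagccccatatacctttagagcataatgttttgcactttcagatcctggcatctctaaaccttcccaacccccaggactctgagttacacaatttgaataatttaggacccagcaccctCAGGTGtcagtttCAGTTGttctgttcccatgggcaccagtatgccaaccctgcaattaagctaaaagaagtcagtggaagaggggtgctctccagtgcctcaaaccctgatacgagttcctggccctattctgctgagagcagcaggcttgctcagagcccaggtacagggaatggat
Chrna1, chr2:73580289-73580588, − strand: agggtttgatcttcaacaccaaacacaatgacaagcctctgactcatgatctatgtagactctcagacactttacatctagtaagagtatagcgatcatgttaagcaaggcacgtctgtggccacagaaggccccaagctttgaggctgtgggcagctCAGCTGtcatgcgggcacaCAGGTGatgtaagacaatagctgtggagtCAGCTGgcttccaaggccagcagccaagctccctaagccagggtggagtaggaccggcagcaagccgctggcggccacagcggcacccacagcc
Chrng, chr1:87205561-87205860, + strand: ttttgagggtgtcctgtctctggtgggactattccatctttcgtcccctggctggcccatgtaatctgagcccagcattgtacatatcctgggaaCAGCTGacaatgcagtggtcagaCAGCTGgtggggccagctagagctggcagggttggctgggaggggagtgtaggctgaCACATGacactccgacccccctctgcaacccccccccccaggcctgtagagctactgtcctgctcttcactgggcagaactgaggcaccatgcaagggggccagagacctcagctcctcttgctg
The Chrna9 window held 3 CANNTG matches, 1 of them CAGCTG. The Chrna10 window held 2 CANNTG matches and no CAGCTG. The Chrna1 and Chrng windows each held 3 CANNTG matches, 2 of them CAGCTG. Among all 32851 windows of this length, 72.3% held a CANNTG and 16.3% a CAGCTG, so the presence of the wider motif did not set these windows apart. A match is a run of letters and was not tested as a binding site. The Chrnb2 window (chr3:89764583-89764882, − strand) held 2 CANNTG matches and no CAGCTG. In the same annotation Chrna9 lies at chr5:65934854-65977486, so the start used for its window falls inside the annotated gene. Chrna10 lies at chr7:102111260-102116971, so its whole window falls inside the annotated gene too. Chrna1 lies at chr2:73563281-73580338, Chrnb2 at chr3:89753448-89764632 and Rapsn at chr2:91035472-91045729, where the annotated locus Gm13778 overlaps it. The strand setting of the counting was not given, so Rapsn UMIs could not be told apart from those of an overlapping transcript.

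Chrna9 and Chrna10 UMIs were almost confined to HC classes, whereas Rapsn UMIs lay mostly elsewhere. The 3 classes together made up 5.18% of kept cells and 7.52% of their UMIs. They held 96.1% of the 1922 Chrna9 UMIs, 98.7% of the 300 Chrna10 UMIs and 87.0% of the 108 Chrna1 UMIs. For Chrnb2 the share was 33.8% of 145 UMIs, with 84 of the rest in Neuron-like cells. For Rapsn it was 4.27% of 632 UMIs, with 277 in Macrophage-like and 220 in Neuron-like cells.

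**Figure D1:**
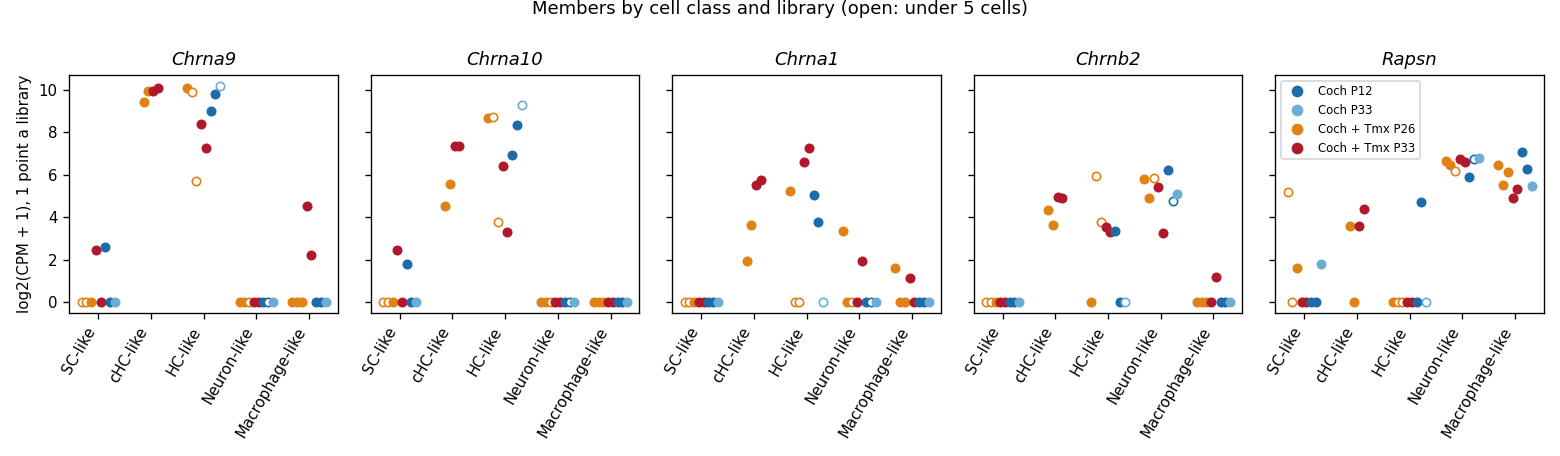
Level of each member as log2(CPM + 1) (vertical axis) in 5 cell classes (horizontal axis), 1 point a library, coloured by group, open where the class had under 5 cells in that library. Chrna9 sits near 10 in all 4 cHC-like points, while its SC-like points are at or below 5.00 CPM.

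Chrna9, the subunit the reporter line was built on, was high in all cHC-like libraries. It reached 692 and 989 CPM in Coch + Tmx P26 rep 1 and rep 2 and 972 and 1076 CPM in Coch + Tmx P33 rep 1 and rep 2 (932 ± 167, SD, n = 4). In HC-like cells it was 1071 CPM in Coch + Tmx P26 rep 1, 329 and 153 CPM in Coch + Tmx P33, and 503 and 885 CPM in Coch P12 (588 ± 383, SD, n = 5 libraries with at least 5 cells). Of the 3 libraries with only 3 or 4 HC-like cells, Coch + Tmx P26 rep 2 gave 948 CPM and Coch P33 gave 1163 CPM. It was 51.3 CPM in the third Coch + Tmx P26 library, the one that stood apart. SC-like cells had 1 UMI in Coch + Tmx P33 rep 1 and 2 UMIs in Coch P12 rep 1, and 0 UMIs in the other 6 libraries. The levels of cHC-like and SC-like cells did not overlap, and those of cHC-like and HC-like cells did.

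Chrna10, the partner of Chrna9, was lower in the cHC-like cells of both Coch + Tmx P26 libraries than in those of both Coch + Tmx P33 libraries. In cHC-like cells it was 22.2 and 45.5 CPM in Coch + Tmx P26 (30 and 6 cells) and 161 and 161 CPM in Coch + Tmx P33. The share of all genes that separated the ages in this way was not counted, so this is a description only. In HC-like cells with at least 5 cells per library it was 406 CPM in Coch + Tmx P26 rep 1, 84.8 and 9.01 CPM in Coch + Tmx P33, and 119 and 324 CPM in Coch P12. SC-like cells held 2 Chrna10 UMIs in all, 1 in Coch + Tmx P33 rep 1 and 1 in Coch P12 rep 1.

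Chrna1, the muscle alpha subunit, followed the same order of age in cHC-like cells. It was 2.78 and 11.4 CPM in Coch + Tmx P26, each from 1 UMI, and 44.3 and 52.5 CPM in Coch + Tmx P33, from 28 and 29 UMIs. In HC-like cells it was 36.9 CPM (1 UMI) in Coch + Tmx P26 rep 1, 95.4 and 153 CPM in Coch + Tmx P33, and 32.0 and 12.5 CPM in Coch P12. No Chrna1 UMI was found in the 129 SC-like cells, whose 1802255 UMIs put the level that a count of 0 allows at 1.66 CPM.

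Chrnb2, the neuronal beta subunit, was low but present in every cHC-like library. Its levels were 19.4 and 11.4 CPM in Coch + Tmx P26 and 30.1 and 28.9 CPM in Coch + Tmx P33, from 7, 1, 19 and 16 UMIs. HC-like cells held 6 Chrnb2 UMIs in 5 libraries and SC-like cells 0. In Neuron-like cells Chrnb2 was 37.2 CPM over all libraries (95% exact Poisson interval 29.7 to 46.0), and in cHC-like cells it was 26.3 CPM (19.1 to 35.5), so these counting intervals overlapped. The 7 neuron markers summed to 56.8 to 312 CPM per cHC-like library and to 0 to 60.2 CPM per SC-like library, with 5 and 4 of the 7 detected and Prph and Scn9a at 0 in both. In Neuron-like cells the same list reached 8537 to 10090 CPM. The part of neuronal RNA in the Chrnb2 level was not tested.

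Rapsn, the receptor scaffold, was scarce in the HC lineage. Its cHC-like UMIs numbered 4 and 0 in Coch + Tmx P26 and 7 and 11 in Coch + Tmx P33, or 11.1, 0, 11.1 and 19.9 CPM. HC-like cells held 2 UMIs and SC-like cells 3. Rapsn was highest in Neuron-like cells, at 57.4 to 108 CPM in 6 libraries with at least 5 such cells, and in Macrophage-like cells, at 29.3 to 132 CPM in 8 libraries. Over all libraries the order was Neuron-like (97.4 CPM, 84.9 to 111), Macrophage-like (66.8 CPM, 59.2 to 75.2), cHC-like (13.5 CPM, 8.44 to 20.4), Glia-like (7.17 CPM, 3.09 to 14.1) and then under 4 CPM in each other class. The cHC-like and Glia-like intervals overlapped. These intervals cover counting error only. The 6 macrophage markers summed to 33.3 to 215 CPM per cHC-like library and 27.5 to 118 CPM per SC-like library, against 16580 to 19240 CPM in Macrophage-like cells, and their part in the Rapsn level was not tested.

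**Figure D2:**
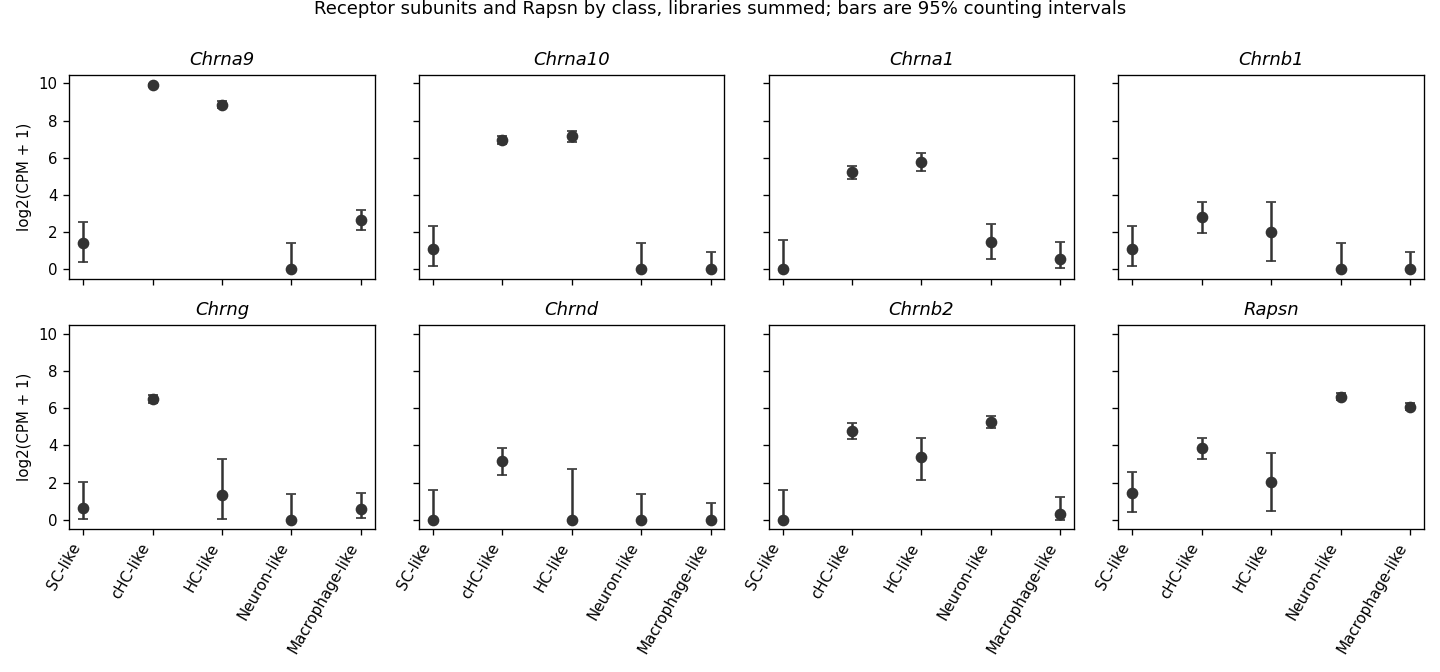
Level of 7 subunits and Rapsn as log2(CPM + 1) (vertical axis) in 5 classes (horizontal axis), UMIs of all libraries summed, with 95% exact Poisson intervals as bars. Chrng has a level of 89.4 CPM in cHC-like cells and at most 1.55 CPM in the other classes shown, and Rapsn is highest in Neuron-like and Macrophage-like cells.

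The comparison of cHC-like with SC-like cells asks which receptor genes differed between converted cells and the cell type they arose from. UMIs were summed per library and class, and 15 sums with at least 5 cells were fitted with edgeR's quasi-likelihood test with library as a block. Each of Chrna9, Chrna10, Chrna1, Chrnb2 and Rapsn was called higher in cHC-like than in SC-like cells (Benjamini-Hochberg adjusted p under 0.05 over 10474 genes, of which 11.0% were called higher and 5.85% lower). A gene was tested from 20 UMIs over all sums, a minimum set after the members' totals had been seen, and the members reached it through the HC classes, with 3 or fewer UMIs each in all SC-like cells. Chrnb2 (43 UMIs in cHC-like and 6 in HC-like cells) and Rapsn (22 and 2) reached it mainly through cHC-like cells, so the number of members called is no support for a direction. With edgeR's own minimum the members called were Chrna9 and Chrna10. Both classes were present in Coch + Tmx P33 rep 1 and rep 2, and within those libraries each member was higher in 2 of 2. There Chrna9 stood at 1020 CPM in cHC-like cells against 1 UMI (2.79 CPM) in SC-like cells, a ratio of 365 with a 95% counting interval of 65.4 to 14440. Chrna10 stood at 161 CPM against 1 UMI, a ratio of 57.7 (10.2 to 2291). In the same libraries Atoh1 was 3493 CPM in cHC-like and 492 CPM in SC-like cells, so the SC-like cells of these ratios were not free of Atoh1 RNA. Against SC-like sums of 0, with a floor of 3 counts over the pair of libraries, Chrna1 was at least 5.74-fold higher, Chrnb2 at least 3.52-fold higher and Rapsn at least 1.81-fold higher.

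The fitted log2 fold change of Chrna9 was 8.46 ± 0.66 (SE, edgeR adjusted p = 4.80e-13) and that of Chrna10 was 5.97 ± 0.91 (edgeR adjusted p = 4.16e-06). Leaving out Coch + Tmx P33 rep 2 gave Chrna10 a value of 4.77, and leaving out Coch + Tmx P26 rep 1 gave 7.19. The edgeR adjusted p was 4.85e-04 for Chrna1, 0.0040 for Chrnb2 and 0.018 for Rapsn, whose fitted folds depend on the prior count. Without Coch + Tmx P33 rep 1 or rep 2 the Chrnb2 call was lost (edgeR adjusted p = 0.135 and 0.058), and without either of those libraries Rapsn had too few UMIs to be tested. Rapsn also lost its call without Coch P12 rep 2 (0.103), with at least 10 cells a sum (0.145) and with only the sums of the 2 classes in the fit (0.158). All 4 cHC-like sums entered the fit, as did the SC-like sums of Coch P12, Coch P33 and Coch + Tmx P26 rep 3 (32 cells). With library as a block, the direct comparison of the 2 classes rests on Coch + Tmx P33 rep 1 and rep 2. Mitochondrial reads were higher in cHC-like cells (median 10.5%) and HC-like cells (14.0%) than in SC-like cells (5.56%), and with a limit of 10% the 2 members still called were Chrna9 and Chrna10.

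HC-like cells were compared with SC-like cells in the same way. Chrna9, Chrna10 and Chrna1 were called higher in HC-like cells, 3 of 5 members, where 8.38% of all genes were called higher and 8.57% lower. The members reached the minimum through the HC classes here too, so this number is no support for a direction. EdgeR's own minimum would have dropped Chrna1. In the 4 libraries with at least 5 cells of both classes, Chrna9 was 454 CPM against 3.42 CPM, a ratio of 133 (44.8 to 648), and higher in 4 of 4. Chrna10 was 121 CPM against 2.28 CPM, a ratio of 53.0 (14.1 to 448). Chrna1 had 34 UMIs against 0 and was thus higher by at least 19.7-fold. In the same libraries Atoh1 was 196 CPM in HC-like and 236 CPM in SC-like cells, so neither class was free of Atoh1 RNA. The log2 fold change was 6.81 ± 0.62 for Chrna9 (SE, edgeR adjusted p = 1.18e-11) and 5.51 ± 0.85 for Chrna10 (edgeR adjusted p = 3.26e-06), and the edgeR adjusted p of Chrna1 was 5.24e-06. Chrnb2 (4 UMIs against 0, edgeR adjusted p = 0.108) and Rapsn (2 against 0, edgeR adjusted p = 0.357) did not pass.

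Between cHC-like and HC-like cells, 1 of the 5 members passed, Chrna9, where 9.73% of all genes were called, 6.43% higher and 3.30% lower in cHC-like cells. In the 3 libraries with both classes Chrna9 was 944 CPM in cHC-like and 331 CPM in HC-like cells, a ratio of 2.85 (2.26 to 3.63), higher in 2 of 3. Its log2 fold change was 1.65 ± 0.45 (SE, edgeR adjusted p = 0.011). The call was lost without Coch + Tmx P33 rep 1 (edgeR adjusted p = 0.125) or rep 2 (0.496) and with DESeq2 (0.262), and it held in none of the alternatives with no TMM scaling (0.072), no library block (0.097) or at least 10 cells a sum (0.751). Chrna10 differed by 0.46 ± 0.62 (edgeR adjusted p = 0.752), but without Coch + Tmx P26 rep 1 by 2.03 (edgeR adjusted p = 0.015). Chrna1 was lower in cHC-like cells in 3 of 3 libraries, 37.5 against 116 CPM, with a log2 fold change of -1.21 ± 0.55 that did not pass (edgeR adjusted p = 0.189). For Chrnb2 (42 UMIs against 2) and Rapsn (22 against 0) the adjusted p was 0.294 and 0.191 with edgeR.

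The HC-like class joined cells with and without the inner HC transporter gene Slc17a8 (VGLUT3), and the members differed between them. Of the 64 cells, 26 held at least 2 Slc17a8 UMIs. Their Chrna9 level was 139 CPM (103 to 182), against 919 CPM (808 to 1041) in the other 38. Chrna10 was 24.0 CPM (11.0 to 45.5) against 305 CPM (243 to 379). Its 9 UMIs in the cells with Slc17a8 lay in 3 cells, 5 of them in the single such cell of Coch + Tmx P26 rep 1 (850 CPM) and 4 in Coch + Tmx P33 rep 1 (47.5 CPM). Chrna1 was 79.9 CPM (53.9 to 114) in cells with Slc17a8 and 18.6 CPM (6.04 to 43.4) in the others, but these sums mix libraries and ages. In Coch P12 rep 1, with 11 and 17 cells of the 2 kinds, Chrna1 was 36.9 CPM (10.1 to 94.5) against 27.2 CPM (5.6 to 79.4), so the intervals overlapped. The outer HC genes Ocm (calcium buffer oncomodulin, 1001 against 32860 CPM) and Slc26a5 (prestin, 5.33 against 536 CPM) were lower in the cells with Slc17a8, and Otof (otoferlin) was higher, at 954 against 190 CPM. These are descriptions of cells split by 1 gene, and the cells are not replicates.

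In cells with under 2 Slc17a8 UMIs, Chrna9 was 991 CPM in Coch + Tmx P26 rep 1, 698 and 1745 CPM in Coch + Tmx P33 rep 1 and rep 2, and 905 and 885 CPM in Coch P12 rep 1 and rep 2. Those 5 values came from 5, 2, 1, 17 and 6 cells. Among such cells it was also 948 CPM in rep 2 of Coch + Tmx P26 (3 cells), 402 CPM in the rep 3 library (1 cell) and 1163 CPM in Coch P33 (3 cells). The cHC-like levels of 692 to 1076 CPM overlapped with these. In the 5 and 6 cells of Coch + Tmx P33 with at least 2 Slc17a8 UMIs, Chrna9 was 285 and 84.6 CPM, and these cells made up 5 of 7 and 6 of 7 HC-like cells of those libraries. The share of such cells thus moved with the difference between cHC-like and HC-like cells, and its part in it was not tested.

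**Figure D3:**
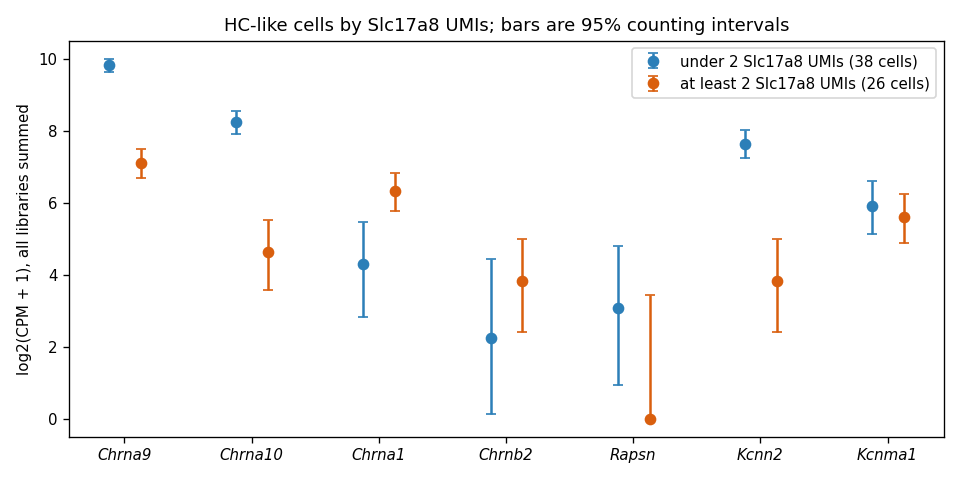
Level in HC-like cells as log2(CPM + 1) (vertical axis) for the 5 members, Kcnn2 and Kcnma1 (horizontal axis), in 38 cells with under 2 and 26 cells with at least 2 Slc17a8 UMIs, with 95% exact Poisson intervals as bars. The sums run over all libraries. Chrna9, Chrna10 and Kcnn2 are higher in the cells with under 2 Slc17a8 UMIs, and the Chrna1 sums mix libraries and ages.

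Age was compared within cHC-like cells to ask how the receptor genes differed between the younger and the older converted cells. Chrna10 was higher in Coch + Tmx P33 by 2.47 ± 0.38 on the log2 scale (SE, edgeR adjusted p = 0.017), and Chrna1 by 3.26 ± 0.72 (edgeR adjusted p = 0.048). Of 7995 genes tested, 1.78% were called, 0.988% higher and 0.788% lower. Chrna9 differed by 0.29 ± 0.26 (edgeR adjusted p = 0.626), Chrnb2 by 0.66 ± 0.56 (0.607) and Rapsn by 0.71 ± 0.86 (0.734). Each age had 2 libraries, and the Coch + Tmx P26 rep 2 sum held 6 cells. Both calls were lost without Coch + Tmx P26 rep 1 (edgeR adjusted p = 0.061 for Chrna10 and 0.376 for Chrna1), and Chrna1 also without Coch + Tmx P33 rep 2 (0.060). With mitochondrial reads limited to 10%, no gene of 4666 was called by edgeR, 391 genes had an unadjusted p under 0.05, and the Chrna10 difference was 1.52.

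In HC-like cells, 3 of the 5 members could be tested between Coch + Tmx P33 and Coch P12, and none passed (2.08% of 4377 genes were called, 1.26% higher and 0.822% lower in Coch + Tmx P33). Age and induction differed together between these groups, so a difference cannot be assigned to either alone. Chrna9 differed by -1.52 ± 0.47 on the log2 scale (SE, edgeR adjusted p = 0.114). Chrna10 differed by -2.18 ± 0.79 (edgeR adjusted p = 0.159) and Chrna1 by 2.26 ± 0.65 (edgeR adjusted p = 0.089). In each of the 3 genes both libraries of one group lay above both of the other. The share of all genes that separated in this way was not counted, so this is a description only. Without Coch + Tmx P33 rep 1, Chrna9 (-2.13, edgeR adjusted p = 0.030) and Chrna10 (-4.36, edgeR adjusted p = 0.011) passed. With no minimum of UMIs both also passed (edgeR adjusted p = 0.034 and 0.017). Cells with at least 2 Slc17a8 UMIs made up 11 of 28 HC-like cells in Coch P12 rep 1 and none of 6 in rep 2, fewer than in Coch + Tmx P33. Slc26a5 (log2 fold change -5.23 ± 0.74, edgeR adjusted p = 0.010) and Ocm (-2.81 ± 0.46, edgeR adjusted p = 0.018) were lower in Coch + Tmx P33. Atoh1 was higher there (2.58 ± 0.46, edgeR adjusted p = 0.025). In SC-like cells no member had enough UMIs to be tested between these groups, where 4.29% of 7336 genes were called, 2.30% higher and 1.99% lower.

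Per cell, Chrna9 was found in nearly every converted cell. A Chrna9 UMI was present in 110 of 116 cHC-like cells (94.8%, exact 95% interval 89.1 to 98.1), 49 of 64 HC-like cells (76.6%, 64.3 to 86.3) and 3 of 129 SC-like cells (2.33%, 0.482 to 6.65), at median depths of 13108, 7205 and 14208 UMIs. In 557 Macrophage-like cells, which should lack the gene, the share was 1.08% at a median of 6043 UMIs. With each cell thinned to 1000 UMIs, the Chrna9 share was 58.6% (49.1 to 67.7) in cHC-like and 39.1% (27.1 to 52.1) in HC-like cells, and 0 of 129 in SC-like cells, which allows up to 2.33%. The median cHC-like cell held 6.5, 17.5, 10.5 and 14.5 Chrna9 UMIs in the 4 libraries in the order given above, and the highest held 49.

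The other members were found in fewer cells. Chrna10 was detected in 47.4% of cHC-like and 54.7% of HC-like cells, or 10.3% (5.46 to 17.4) and 15.6% (7.76 to 26.9) after thinning, so the intervals overlapped. By library, 6 of 30 and 2 of 6 cHC-like cells held Chrna10 in Coch + Tmx P26 against 25 of 42 and 22 of 38 in Coch + Tmx P33. Chrna1 was detected in 31.0% of cHC-like and 21.9% of HC-like cells, Chrnb2 in 27.6% and 9.38%, and Rapsn in 14.7% and 1.56%. After thinning these 3 genes were left in at most 4 cells of either class. Of the 116 cHC-like cells, 5 had no member, 38 had 1, 25 had 2, 32 had 3, 14 had 4 and 2 had all 5. In HC-like cells 32 of 64 held exactly 2 members, and in SC-like cells 122 of 129 held none.

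Co-detection was counted against the number expected if genes were found independently of each other within each library. All 55 cHC-like cells with Chrna10 also held Chrna9 (52.1 expected), which was near the expected number because Chrna9 was in nearly all cells. In HC-like cells 34 held both (28.1 expected). Chrna10 and Chrna1 were found together in 28 cHC-like cells (20.5 expected), Chrna10 and Chrng in 35 (27.2 expected), and Chrna1 and Chrng in 24 (18.1 expected). In HC-like cells Chrna10 and Chrna1 met in 6 (6.1 expected). Deeper cells hold more genes, and after thinning the Chrna10 and Chrna1 pair was found in no cHC-like cell (0.2 expected), so this count was not readable at that depth.

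Chrna10 was seen only in the cHC-like cells that also held a UMI of Pou4f3, an HC transcription factor gene and 1 of the markers that named the class. Of the 69 cells with Pou4f3, 55 held Chrna10, and of the 47 without it, 0 did (34.9 joint cells expected), a share of up to 6.38% being allowed by 0 of 47. The split was the same in each library: Chrna10 was in 6 of 12 and 0 of 18 cells of Coch + Tmx P26 rep 1, in 2 of 4 and 0 of 2 of rep 2, in 25 of 29 and 0 of 13 of Coch + Tmx P33 rep 1, and in 22 of 24 and 0 of 14 of rep 2. As levels, Chrna10 was 193 CPM (168 to 222) in cells with Pou4f3 and 0 UMIs of 583467 in those without. The median depth was 13996 against 12312 UMIs per cell. With each cell thinned to 1000 UMIs, Pou4f3 was left in 47 cells and Chrna10 in 12, and 5 cells held both (4.9 expected). Cells whose Pou4f3 UMIs were lost in thinning then counted as without it, so the split could be read only at full depth.

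Summed over libraries, Chrna9 did not follow that split. It was 929 CPM (872 to 989) with Pou4f3 and 977 CPM (898 to 1061) without, and was found in 67 of 69 and 43 of 47 cells. The libraries differed: it was 872 against 578 CPM in Coch + Tmx P26 rep 1, 1230 against 153 CPM in rep 2, 778 against 1479 CPM in Coch + Tmx P33 rep 1 and 1076 against 1077 CPM in rep 2. Chrna1 was 50.5 CPM (37.8 to 66.1) against 10.3 CPM (3.77 to 22.4), Chrnb2 29.5 CPM (20.1 to 41.9) against 20.6 CPM (10.6 to 35.9), and Rapsn 17.2 CPM (10.2 to 27.1) against 6.86 CPM (1.87 to 17.6). Chrng was 115 CPM (95.7 to 138) against 42.9 CPM (27.7 to 63.3). Otof, needed for synaptic vesicle release in HCs, had 100 UMIs against 0, as Chrna10 did. Atoh1 had no single direction over the libraries, at 3186 against 1594 CPM in Coch + Tmx P26 rep 1 and 3162 against 3681 CPM in Coch + Tmx P33 rep 1. The cells were split by a gene of the same cells, the cells of 1 library are not replicates, and no test was made.

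**Figure D4:**
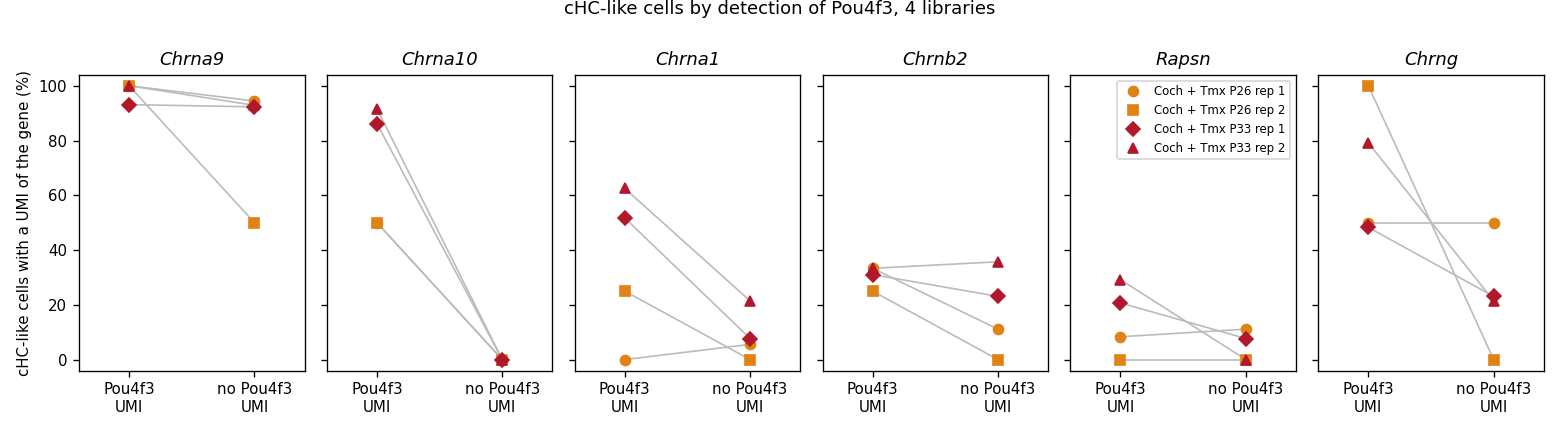
Share of cHC-like cells with at least 1 UMI of each gene (vertical axis, percent), for cells with and without a Pou4f3 UMI (horizontal axis), 1 symbol for each of 4 libraries, lines joining a library. Chrna10 falls to 0 in all 4 libraries in cells without Pou4f3, while Chrna9 stays above 90% in 3 of them and is at 1 of 2 cells in Coch + Tmx P26 rep 2.

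Across the other genes of the efferent synapse and the nicotinic receptor, 50 listed genes in 6 lists, 15 had at least 20 UMIs over the sums and were tested. Of these 15, 10 were higher and none lower in cHC-like than in SC-like cells, with a median log2 fold change of 4.69 against 0.26 over all genes tested, of which 11.0% were higher and 5.85% lower. In HC-like against SC-like cells 8 were higher and 1 lower (median 3.92 against -0.03), where 8.38% of all genes were higher and 8.57% lower. In cHC-like against HC-like cells 5 were higher and 2 lower (median 1.47 against 0.28), where 6.43% were higher and 3.30% lower. The lists were chosen with earlier results of these data known and hold the members. Chrna9, Chrna10, Chrna1, Chrnb2, Rapsn, Chrng, Ly6h, Kcnn2, Kcnma1, Ryr1 and Chrm3, with 3 or fewer UMIs each in SC-like cells, were tested because of their UMIs in the HC classes. The counts and medians of all 3 contrasts are therefore a description and no support.

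Of the 16 receptor subunits, Chrna9, Chrna10, Chrna1, Chrnb2 and Chrng had enough UMIs to be tested. All of these were called higher in cHC-like than in SC-like cells, which the minimum largely fixed. Chrng, the fetal gamma subunit, was called higher than in HC-like cells too. It reached the minimum through cHC-like cells, so the direction of that call was largely fixed as well. It was 99.97, 68.2, 60.1 and 119 CPM in the 4 cHC-like libraries, against 1 UMI in all 64 HC-like cells and 1 UMI in all 129 SC-like cells. The uninduced libraries held 0 Chrng UMIs over all their kept cells. Its log2 fold change was 4.69 ± 0.98 against SC-like (SE, edgeR adjusted p = 4.57e-04) and 4.54 ± 0.95 against HC-like cells (SE, edgeR adjusted p = 9.54e-04), and without Coch + Tmx P33 rep 2 the values were 3.58 and 3.43 and the edgeR adjusted p 0.085 and 0.099. Without Coch + Tmx P33 rep 1 the values were 7.81 and 7.80. With mitochondrial reads limited to 10% the call against SC-like cells was lost (0.089). Its difference between ages was -0.09 ± 0.40 (edgeR adjusted p = 0.948).

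The remaining subunits of the fetal muscle receptor were found at few UMIs. Chrnd, the delta subunit, had 10, 1, 1 and 1 UMIs in the 4 cHC-like libraries and 0 in HC-like and SC-like cells. Chrnb1, the muscle beta subunit, had 5, 1, 3 and 1 UMIs in cHC-like cells, 2 in HC-like and 2 in SC-like cells. The 5 skeletal muscle markers summed to 6.74 CPM in cHC-like and 8.32 CPM in SC-like cells, 0 to 10.9 and 4.52 to 29.3 CPM per library, with 3 of 5 detected in each and Ckm (muscle creatine kinase) at 0 in both. Chrna2, Chrna5, Chrna7, Chrnb3 and Chrne had 0 UMIs in the 3 classes.

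Among receptor accessory genes, Ly6h, which encodes a small membrane protein of the Ly6 family that binds nicotinic receptors, was high in converted cells. It was 99.97 and 34.1 CPM in Coch + Tmx P26 and 361 and 268 CPM in Coch + Tmx P33 cHC-like cells, against 0 UMIs in SC-like cells, which made it at least 37.9-fold higher in Coch + Tmx P33 (edgeR adjusted p = 2.32e-08). DESeq2 did not call it (adjusted p = 0.308). In cHC-like cells it was higher in Coch + Tmx P33 than in Coch + Tmx P26 by 1.89 ± 0.38 (SE, edgeR adjusted p = 0.039). That call was lost with mitochondrial reads limited to 10%, and the Coch + Tmx P26 rep 2 sum held 6 cells. Ly6h reached the minimum mainly through cHC-like cells, with 415 UMIs there and 9 in HC-like cells. The direction of its calls in cHC-like cells against the other classes was therefore largely fixed. Against SC-like cells Ly6e, of the same family, was higher by 1.78 ± 0.56 (SE, edgeR adjusted p = 0.020), and Ric3, a chaperone of receptor assembly, by 2.26 ± 0.73 (SE, edgeR adjusted p = 0.026). Lypd1, also of that family, did not pass against SC-like cells (1.66 ± 0.86, edgeR adjusted p = 0.201) but was higher in cHC-like than HC-like cells, by at least 3.11-fold with 62 UMIs against 0 in the shared libraries (edgeR adjusted p = 0.0045). Lypd1 reached the minimum mainly through cHC-like cells, with 67 UMIs there, 18 in SC-like and 1 in HC-like cells.

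Of the calcium-activated potassium channels, Kcnma1 was lower in cHC-like than in HC-like cells, and Kcnn2 did not pass in that contrast. Kcnn2, the SK2 channel of the efferent synapse, was 185, 31.8, 9.01, 114 and 150 CPM in the 5 HC-like sums and 0, 11.4, 9.49 and 10.9 CPM in the 4 cHC-like sums. It was higher than in SC-like cells in both classes (edgeR adjusted p = 0.022 for cHC-like and 1.08e-05 for HC-like cells), and the difference of -2.08 ± 0.89 between cHC-like and HC-like cells did not pass (edgeR adjusted p = 0.154). In HC-like cells it was 201 CPM with under 2 Slc17a8 UMIs and 13.3 CPM with at least 2. Kcnma1, the large-conductance BK channel, had 34 UMIs in HC-like cells and 0 in cHC-like cells, and was at least 22.2-fold lower in cHC-like cells of the 3 shared libraries (edgeR adjusted p = 6.35e-04). Chrm3, a muscarinic receptor, was lower too, with 1 UMI against 13, a ratio of 0.0116 with a counting interval up to 0.077 (edgeR adjusted p = 0.0039). Ryr1, a calcium release channel, was 20.9-fold higher in HC-like than in SC-like cells (5.18 to 182, edgeR adjusted p = 0.0028). Kcnn2, Kcnma1, Chrm3 and Ryr1 reached the minimum mainly through HC-like cells, with 59, 34, 19 and 26 UMIs there. The directions of their calls were therefore largely fixed. Bche, butyrylcholinesterase, was lower in HC-like than in SC-like cells (log2 fold change -2.22 ± 0.65, SE, edgeR adjusted p = 0.013).

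**Figure D5:**
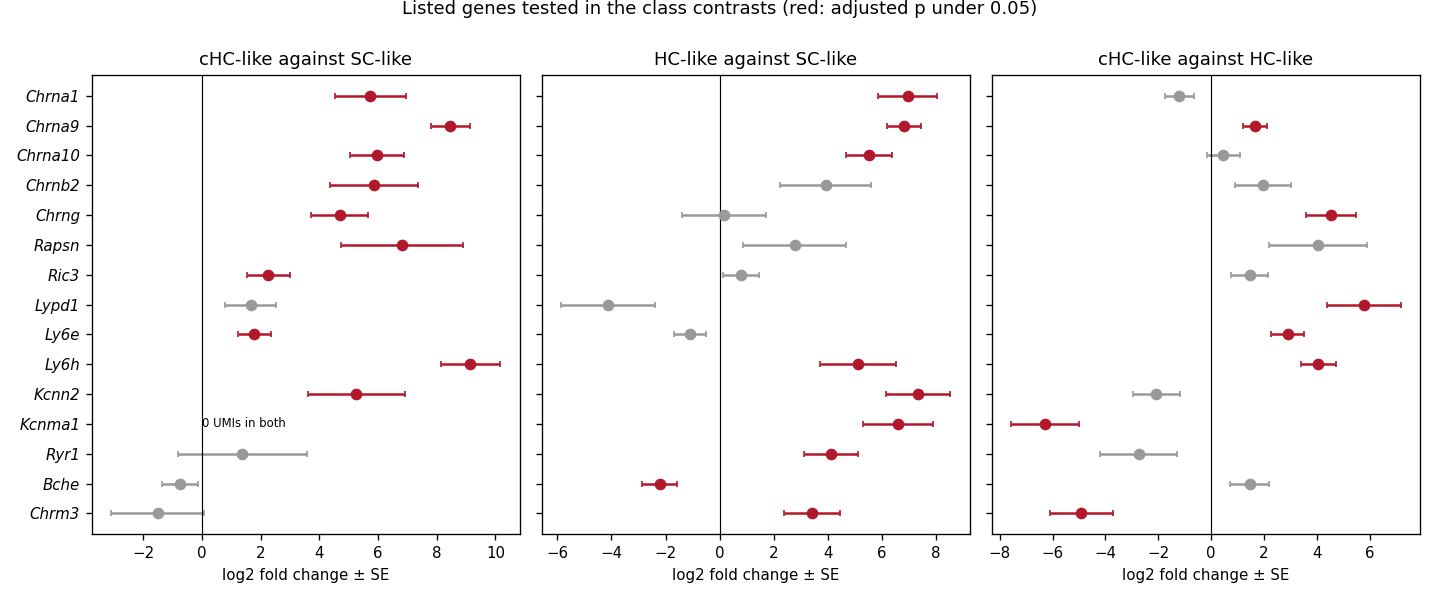
Log2 fold change ± SE (horizontal axis) of the 15 listed genes tested (vertical axis) in 3 class contrasts, red where the adjusted p was under 0.05, with no point for Kcnma1 where both classes had 0 UMIs. Chrna9, Chrna10 and Chrna1 are higher than in SC-like cells in both HC classes, Chrng and Ly6h are higher in cHC-like than HC-like cells, and Kcnma1 and Chrm3 are lower.

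Whole-library levels were compared between the 5 induced and 3 uninduced libraries by two-sided exact permutation tests of mean log2(CPM + 1), whose smallest possible p was 0.036. In such sums, more cells of a type and more RNA per cell cannot be told apart. Chrna9 was 55.5, 33.1, 0.721, 140 and 113 CPM in the induced libraries (Coch + Tmx P26 rep 1 to 3, then Coch + Tmx P33) and 9.19, 6.996 and 3.44 CPM in the uninduced ones. The groups overlapped only through the library labelled Coch + Tmx P26 rep 3, and the mean difference was 2.30 (exact p = 0.179). Without it the difference was 3.39, every induced library lay above every uninduced one, and the exact p was 0.057, the smallest possible there. The same held for Chrna10 (1.62) and Chrna1 (1.87). How many of all genes separated when that library was left out was not counted, so these separations are no result about the members. Chrna10 differed by 1.01 (exact p = 0.393), Chrna1 by 1.44 (exact p = 0.179), Chrnb2 by 0.70 (exact p = 0.250) and Rapsn by 0.20 (exact p = 0.643), 5 tests whose Benjamini-Hochberg adjusted p ranged from 0.417 to 0.643.

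The genes whose levels were most like each member were sought over 55 sums of library and class with at least 10 cells, from 13 classes, as Pearson's r of log2(CPM + 1). For Chrna9 these were Sema5b (0.94), Gm4131 (0.937), Lhx3 (0.935), Grxcr1 (0.931) and Chrna10 (0.928), where Lhx3 was also a marker that named the class. For Chrna10 they were Gm4131 (0.955), Grxcr1 (0.951), Kncn (0.95), Lrtm2 (0.945) and Xirp2 (0.942). For Chrna1 they were Xirp2, Smim18, Mgat5b, Kcna10 and Grm2, with r from 0.863 to 0.893. For Chrnb2 they were Ano3 (0.95), Rimbp2, 1110017D15Rik, Ppp1r27 and Actl6b (0.92). Rapsn stood apart, with Gas6 (0.82), BC049352, Maf, Arhgap22 and Scamp5 (0.79). Grxcr1, Kncn and Xirp2 encode proteins of the hair bundle or its base, Rimbp2 and Scamp5 act at synapses, and Maf is a transcription factor gene of macrophages. Sums of 1 library share its depth, and the classes themselves set most of the spread, so these values describe a shared pattern over cell classes.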

How the data were processed

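Cells were captured with the 10x Genomics 3′ v2 chemistry. The deposited files hold UMI counts per gene and cell, which the authors made with Cell Ranger on mm10; the version and the strand setting are not given in the sources used here. Barcodes with under 500 genes or over 25% mitochondrial UMIs were left out, as were 53 doublets called by score (0.88% of those scored). The remaining cells were clustered with scanpy 1.11.5 and igraph 0.11.9 (2000 variable genes, 30 components, 15 neighbours, resolution 1.0), with the members and lists kept out of the variable genes. A cluster took a name from at least 3 markers found in over 25% of its cells and over 2-fold above the rest. Of 34 clusters 16 stayed unnamed.

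UMIs were summed per library and class and tested in R 4.3.3 with edgeR 4.0.16 (quasi-likelihood, TMM, library block, Benjamini-Hochberg threshold 0.05). DESeq2 1.42.0 was an alternative. Genes with at least 20 UMIs over all sums were tested. That minimum was set after the members' totals had been seen, and edgeR's own filter would have dropped Chrna1, Chrnb2 and Rapsn. The fit was tested on simulated data. Exact permutation tests and exact 95% intervals used scipy 1.17.1. Intervals and floors (3 counts) cover counting error only.

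The members and lists were chosen with earlier results of these data known, among them that Chrna9 leads the cHC-like cluster. Text names the 5 members, listed genes called in a class contrast, the 5 genes most like each member, and 6 genes used beside them (Atoh1, Pou4f3, Ocm, Slc26a5, Slc17a8, Otof). Chrng, Chrnd and Chrnb1 were followed as partners of Chrna1, and the splits by Slc17a8 and Pou4f3 were added, after their values were seen. The replicate numbers did not pair the samples.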

Additional observations from a re-analysis of the deposited data

How the results depend on the processing

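In cHC-like against SC-like cells, 5 members, 1764 genes and 10 listed genes were called. DESeq2 called 3 members, with Chrnb2 and Rapsn at NA, and 4 listed genes. The filterByExpr minimum, chosen after seeing the data, left 2 members, 985 genes and 4 listed genes. With mitochondrial reads under 10% the numbers were 2, 531 and 4, and with cells thinned to 1000 UMIs 1, 188 and 3. Resolution 0.7 gave 3077 genes. Leaving out a library gave 3 to 5 members, 636 to 2155 genes and 4 to 10 listed genes. In HC-like against SC-like cells, 3 members, 1776 genes and 9 listed genes were called. DESeq2 called 5 listed genes, filterByExpr 1165 genes and 3 listed genes, and thinning left 1 member, 303 genes and 1 listed gene. Leave-outs gave 3 members, 962 to 1889 genes and 4 to 9 listed genes, and moved Rapsn from -0.03 to 3.5.

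In cHC-like against HC-like cells, 1 member, 1019 genes and 7 listed genes were called. No member (0) was called by DESeq2, without TMM, with filterByExpr, with no replicate block, with at least 10 cells or after thinning. DESeq2 called 666 genes and 3 listed genes, filterByExpr 529 and 2, at least 10 cells 412 and 0, and thinning 185 and 0. Leave-outs gave 0 to 2 members, 418 to 1101 genes and 4 to 8 listed genes. Chrna10 changed sign with no replicate block (-0.32), after thinning (-0.0) and over the leave-outs (-0.86 to 2.03), and Chrna1 with at least 10 cells (0.61). Without TMM, 47% of calls were higher in place of 66% here, and 62.6% in place of 49.4% in HC-like against SC-like cells, and the median log2 fold change of all genes was -0.02 in place of 0.28 and 0.17 in place of -0.03. With mitochondrial reads under 10% no HC-like sum was left, so these contrasts could not be fitted.

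Between ages of cHC-like cells, 2 members and 142 genes were called. DESeq2 called 1 member, no filter gave 510 genes, and mitochondrial reads under 10% left 0 members and 0 genes (391 at an unadjusted p under 0.05). Leave-outs gave 0 to 2 members and 130 to 938 genes. Chrng changed sign with no filter (0.01), with crossed pairing (0.07) and over the leave-outs (-0.63 to 0.43). In HC-like cells 0 members and 91 genes were called (842 at an unadjusted p under 0.05), and 2 and 321 with no filter. Leave-outs gave 0 to 2 members and 112 to 280 genes. In SC-like cells 315 genes were called, 162 by DESeq2 and 64 to 539 over the leave-outs. Same-numbered libraries did not deviate together (r = -0.162, -0.058 and 0.1 for cHC-like, HC-like and SC-like cells, 2 pairs each). With the replicate block the HC-like calls were 3 members and 356 genes, the cHC-like calls 195 genes and the SC-like calls 469 genes, and the crossed pairing, added after seeing the data, gave 375 cHC-like genes.

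Per library, 0 members passed, and 1 (Chrna10, exact p = 0.036) with mitochondrial reads under 10%. HC-like cells had a median of 14.0% mitochondrial reads, so that limit removed many of them. The uninduced mean log2(CPM + 1) of Chrna10 was 0.12 under it, in place of 1.66. The replicate block allowed no exact p under 0.5. Rapsn changed sign with all deposited barcodes (-0.05) and over the leave-outs (-0.04 to 0.41). The share of cells with Chrna9 was 94.8% unthinned and 80.2% at 2000 UMIs in cHC-like cells, and 76.6% and 54.7% in HC-like cells. Chrna9 and Chrna10 met in 10 cHC-like, 7 HC-like and 0 SC-like cells after thinning. The cause of these changes was not tested. Few HC-like cells and 2 libraries per age limit these results.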

Other observations

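Chrna9 was also listed at 22 UMIs in 6 of 557 Macrophage-like cells. Of these UMIs 19 lay in Coch + Tmx P33 rep 1 (22.3 CPM, 13.4 to 34.8) and 3 in rep 2 (3.72 CPM, 0.768 to 10.9), and the other 6 libraries held 0. In the barcodes that did not pass the filters, Chrna9 had 14 UMIs among 1527 barcodes of induced libraries (1.403 CPM) and 18 among 564 of uninduced ones (4.51 CPM).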
